A study of Mus musculus with 8 samples.

Results

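A set of 10 vessel wall genes was followed in the dorsomedial hypothalamus of mice: the matrix genes Dcn, Lum, Col1a1, Col1a2 and Col3a1 and the growth factor Igf2 of perivascular fibroblasts, the pericyte genes Pdgfrb, Rgs5 and Vtn, and Acta2 of smooth muscle. They were chosen by gene name as genes of these cells, with earlier results of these data known. All 10 were found among the 55487 gene identifiers measured, and 9 of them were among the 17339 genes with enough reads to be tested. Col3a1 had too few.

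RNA sequencing was done on 4 libraries with a short hairpin RNA against Ppp1r17 (group shPpp1r17) and on 4 libraries with a hairpin against firefly luciferase (group shfLuc), an insect gene with no mouse target. Every library came from dorsomedial hypothalamus, a nucleus that takes part in feeding, arousal and daily rhythms, and Ppp1r17 encodes an inhibitor of protein phosphatases found in some of its neurons. The labels give no strain, age or sex, no time after the hairpin and no way of its delivery, and they do not say whether each library was a separate animal. The p-values therefore speak of the scatter among these 8 libraries, some of which may be technical.

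Brain capillaries are wrapped by pericytes, which share a basement membrane with the endothelium and are held there by platelet-derived growth factor signalling. Arterioles carry a coat of contractile smooth muscle instead, and the 2 kinds of cell together are called mural cells. Around larger vessels, and continuous with the leptomeninges, lie sparse fibroblasts that make fibrillar collagen and the small proteoglycans that coat it. All of these are a small minority of the cells in hypothalamic tissue.

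The libraries held 23070147 to 33907984 estimated reads. The targeted gene Ppp1r17 stood at 87.7, 2.07, 3.10 and 87.2 CPM (estimated reads of the gene per 1000000 reads of a library size scaled by its TMM factor) in shPpp1r17 libraries 1 to 4, and at 147, 161, 161 and 171 CPM in shfLuc libraries 1 to 4. The groups did not overlap, and edgeR's quasi-likelihood test gave 0.197 as its adjusted p. Libraries shPpp1r17 2 and 3 stand apart from the rest of their group in Ppp1r17, so results that lean on them are also given without them. Neuronal markers were abundant in every library, with a summed level of 3864 to 4420 CPM in shPpp1r17 and 3826 to 3864 CPM in shfLuc. With an adjusted p under 0.05 in that test called a change, 1050 of all tested genes were called, which is 6.06%, with 3.39% higher and 2.66% lower in shPpp1r17. On log2(TPM + 1), where TPM is the abundance per unit of gene length scaled to the same total in each library, the share of called genes that were higher was 38.8%, against 56% on counts.

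Of the 9 tested vessel wall genes, Dcn alone passed the threshold. It was higher in shPpp1r17, where its mean was 1.85 times that in shfLuc on the fitted scale. None of the 9 passed as lower, and 8 were not called. The fitted change was above 0 for 6 of the 9 genes and below 0 for Col1a2, Pdgfrb and Igf2. Their median log2 fold change was 0.30, beside 0.00427 over all tested genes. At an unadjusted p under 0.05, 4 of the 9 passed, as did 3913 of the 17339 genes. Groups that do not overlap were seen for 1 of the 10 genes (Dcn), where 13.9% of all tested genes have groups apart and 7.12% are apart and higher in shPpp1r17. These are bulk libraries, in which fewer or more cells of a type cannot be told apart from less or more RNA in each.

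**Figure D1:**
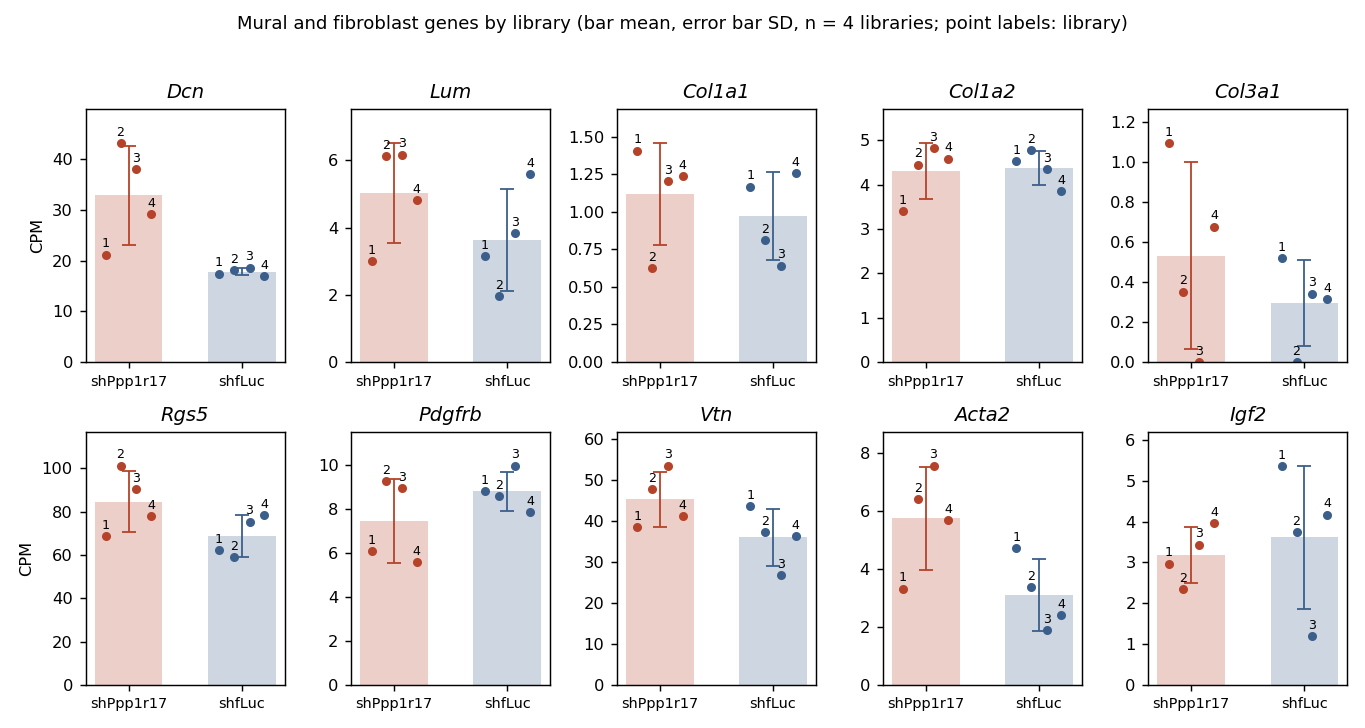
Level of each of the 10 genes in CPM (linear axis from 0), with shPpp1r17 on the left and shfLuc on the right. Points are libraries with their number, bars are means and error bars are SD (n = 4 libraries). The 4 shPpp1r17 libraries lie above all shfLuc libraries for Dcn, and the groups overlap in the other 9 panels.

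Per unit of gene length the genes spanned a wide range. Averaged over the 8 libraries, Vtn stood highest at 41.5 ± 8.08 TPM (SD, n = 8), followed by Rgs5 at 24.6 ± 4.03 TPM and Dcn at 20.4 ± 7.78 TPM. A wide gap separated these from Igf2 at 3.82 ± 1.58 TPM, Acta2 at 3.03 ± 1.29 TPM, Lum at 2.40 ± 0.83 TPM and Pdgfrb at 2.02 ± 0.42 TPM. Col1a2 followed at 1.29 ± 0.19 TPM, and the lowest levels were those of Col3a1 at 0.286 TPM and Col1a1 at 0.279 ± 0.078 TPM. Between neighbours in this order, the ranges over libraries were separate for Dcn above Igf2 and for Col1a2 above Col3a1, and overlapped in the other 7 steps. Vtn exceeded Rgs5 in 8 of 8 libraries even though their ranges overlapped. The 2 genes of the pericyte capillary wall and the proteoglycan Dcn thus gave most of the signal, and the fibrillar collagens of fibroblasts gave the least.

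Dcn encodes decorin, a small leucine-rich proteoglycan that binds collagen fibrils and transforming growth factor beta. It lies on chromosome 10 at 97479609 to 97518143 on the plus strand (ENSMUSG00000019929, GRCm38). Its level was 21.2, 43.3, 38.1 and 29.1 CPM in shPpp1r17 libraries 1 to 4, and 17.5, 18.2, 18.6 and 17.0 CPM in shfLuc libraries 1 to 4. The shfLuc libraries were almost equal, and every shPpp1r17 library stood above them, with library 1 closest and library 2 farthest away. The mean was 32.9 ± 9.76 CPM in shPpp1r17 and 17.8 ± 0.713 CPM in shfLuc (SD, n = 4 each), from 3686 and 1699 reads in all. Dcn rose by 0.89 on the log2 scale (SE 0.18; adjusted p = 0.0149 in edgeR).

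The call on Dcn depended on which libraries were used. With each library left out in turn, its log2 fold change ran from 0.73 to 1.05 and it passed in 4 of the 8 edgeR fits. The adjusted p was 0.0621 without shfLuc 2, 0.0601 without shfLuc 3, 0.0551 without shfLuc 4 and 0.0600 without shPpp1r17 3. Without both shPpp1r17 2 and 3 the change was 0.50 (log2) and the adjusted p was 0.16. In those 2 libraries Dcn was highest and Ppp1r17 was lowest.

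Lum encodes lumican, a related proteoglycan of collagen fibrils whose gene follows Dcn on chromosome 10 (97565128 to 97572703, plus strand). Lum had 3.01, 6.13, 6.17 and 4.82 CPM in shPpp1r17 libraries 1 to 4, and 3.15, 1.96, 3.85 and 5.58 CPM in shfLuc libraries 1 to 4. Libraries 2 and 3 of shPpp1r17 lay above all shfLuc libraries and library 1 lay below 3 of the 4, so the groups overlapped. Lum had a log2 fold change of 0.47 (SE 0.31; adjusted p = 0.415 in edgeR), and one of 0.11 without shPpp1r17 2 and 3.

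The 3 fibrillar collagen genes had no detectable difference. Col1a2 encodes a chain of collagen type I, and it had 3.40, 4.45, 4.82 and 4.59 CPM in shPpp1r17 libraries 1 to 4 and 4.54, 4.77, 4.36 and 3.85 CPM in shfLuc libraries 1 to 4. Its groups covered almost the same range, with a log2 fold change of -0.02 (SE 0.19; adjusted p = 0.965 in edgeR), whose sign turned when shfLuc 2 or shPpp1r17 1 was left out. Col1a1, the partner chain in the type I molecule, had 1.41, 0.62, 1.21 and 1.23 CPM in shPpp1r17 libraries 1 to 4, and 1.17, 0.81, 0.64 and 1.26 CPM in shfLuc libraries 1 to 4. The lowest Col1a1 level was in shPpp1r17 2, the library with the highest Dcn. For Col1a1 the log2 fold change was 0.21 (SE 0.39; adjusted p = 0.807 in edgeR), on 127 reads in shPpp1r17 and 93 in shfLuc.

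Col3a1, the collagen of type III fibrils, had 28, 9, 0 and 23 reads in shPpp1r17 libraries 1 to 4, and 12, 0, 8 and 8 reads in shfLuc libraries 1 to 4. One library of each group was listed at 0, where a count of 0 allows up to 0.11 CPM in shPpp1r17 3 and up to 0.128 CPM in shfLuc 2 (counting error only). At this depth no difference could be seen: fitted in edgeR without the filter on low counts, Col3a1 stood at a log2 fold change of 0.84 (adjusted p = 0.631). The 3 collagen genes together held 5.90, 5.43, 6.03 and 6.50 CPM in shPpp1r17 libraries 1 to 4, and 6.22, 5.58, 5.34 and 5.43 CPM in shfLuc libraries 1 to 4, which overlap.

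Summed over Dcn, Lum and the 3 collagens, fibroblast matrix genes held 30.1, 54.8, 50.3 and 40.5 CPM in shPpp1r17 libraries 1 to 4, and 26.8, 25.7, 27.8 and 28.0 CPM in shfLuc libraries 1 to 4. These sums did not overlap. Without Dcn the sums were 8.91, 11.6, 12.2 and 11.3 CPM in shPpp1r17 and 9.38, 7.54, 9.19 and 11.0 CPM in shfLuc, and they did overlap.

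Because Dcn differed and its neighbours in role did not pass, its ratio to each of the other 8 tested genes was compared between groups, a measure chosen after its values were seen. Dcn over Col1a2 was 6.13, 9.57, 7.80 and 6.26 in shPpp1r17 libraries 1 to 4, and 3.80, 3.76, 4.22 and 4.35 in shfLuc libraries 1 to 4. Dcn over Pdgfrb was 3.47, 4.65, 4.23 and 5.16 in shPpp1r17, and 1.97, 2.11, 1.86 and 2.16 in shfLuc. The groups were apart for these ratios and for Dcn over Rgs5, each with p = 0.0286 in an exact two-sided permutation test, the smallest that 4 against 4 libraries allow. After Benjamini-Hochberg adjustment over the 8 ratios that p was 0.0762, so no ratio passed 0.05. The nearest values of Dcn over Rgs5 were 0.3091 in shPpp1r17 1 and 0.3076 in shfLuc 2, a narrow gap. The ratio to Vtn overlapped between groups, with an exact permutation p of 0.0571 (0.114 adjusted). Those to Lum, Col1a1, Acta2 and Igf2 overlapped as well, with exact permutation p from 0.171 to 0.771.

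**Figure D2:**
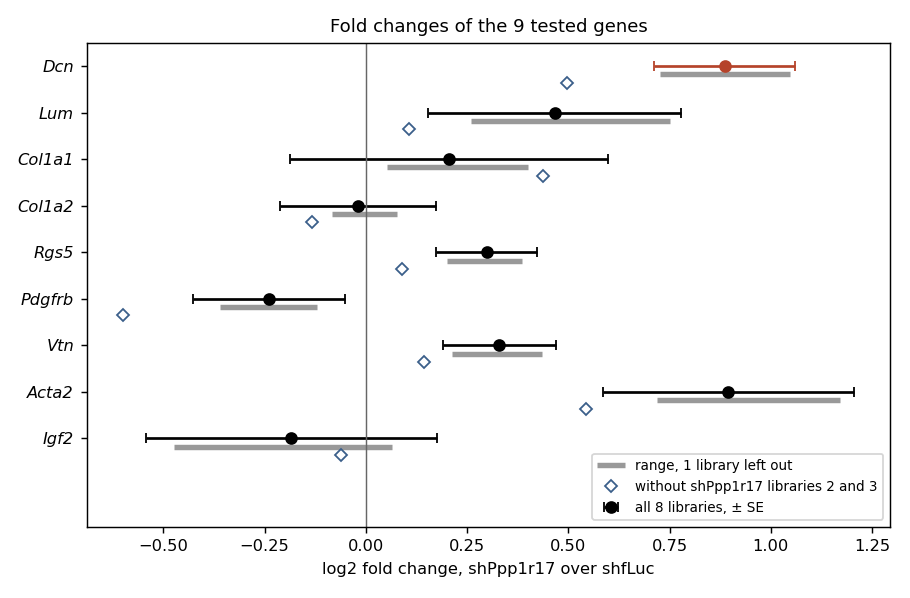
Log2 fold change of shPpp1r17 over shfLuc for the 9 tested genes from edgeR's quasi-likelihood fit (points, with SE), the range over fits with 1 library left out (grey bars) and the fit without shPpp1r17 libraries 2 and 3 (open diamonds). Dcn, in red, is the gene with an adjusted p under 0.05, and its range of 0.73 to 1.05 lies right of 0, as does its value of 0.50 without those 2 libraries.

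The pericyte genes had smaller fitted changes, on both sides of 0, and none passed. Rgs5 encodes a regulator of G protein signalling that dampens vasoactive signals and is a standard pericyte marker (chromosome 1, 169655501 to 169695813, plus strand). Rgs5 had 68.8, 101.3, 90.4 and 78.0 CPM in shPpp1r17 libraries 1 to 4, and 62.1, 59.2, 75.4 and 78.5 CPM in shfLuc libraries 1 to 4. Libraries 2 and 3 of shPpp1r17 were above every shfLuc library and libraries 1 and 4 were within their range. Its log2 fold change was 0.30 (SE 0.12; adjusted p = 0.176 in edgeR), and it was 0.09 without shPpp1r17 2 and 3.

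Vtn encodes vitronectin, an adhesive protein of plasma and matrix that brain pericytes make (chromosome 11, 78499091 to 78502324, plus strand). Vtn had 38.5, 47.8, 53.4 and 41.1 CPM in shPpp1r17 libraries 1 to 4, and 43.6, 37.2, 26.8 and 36.2 CPM in shfLuc libraries 1 to 4. The highest shfLuc library exceeded 2 of the shPpp1r17 libraries, and the log2 fold change was 0.33 (SE 0.14; adjusted p = 0.18 in edgeR), or 0.14 without shPpp1r17 2 and 3. Pdgfrb, the receptor through which platelet-derived growth factor recruits mural cells, had 6.06, 9.25, 8.95 and 5.59 CPM in shPpp1r17 libraries 1 to 4, and 8.81, 8.56, 9.96 and 7.83 CPM in shfLuc libraries 1 to 4. Here libraries 1 and 4 of shPpp1r17 were the lowest of the 8, and libraries 2 and 3 lay within the shfLuc range. For Pdgfrb the log2 fold change was -0.24 (SE 0.19; adjusted p = 0.495 in edgeR), and -0.60 without shPpp1r17 2 and 3, which did not pass either (adjusted p = 0.194). The 3 pericyte genes summed to 113, 158, 153 and 125 CPM in shPpp1r17 libraries 1 to 4, and to 115, 105, 112 and 123 CPM in shfLuc libraries 1 to 4, which overlap.

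The stretches before Rgs5 and Vtn are shown because these are the pericyte genes with most reads. They come from RefSeq (GRCm38.p6), where 6 of the 10 genes had an entry, and are given on the plus strand. For Rgs5 all 250 bases before the start are shown, chr1:169655251-169655500, and for Vtn 221 bases, chr11:78498870-78499090, since the next 29 belong to the gene in GENCODE M21. Capitals mark matches to CCAAT and TATAAA, searched on both strands.
Rgs5: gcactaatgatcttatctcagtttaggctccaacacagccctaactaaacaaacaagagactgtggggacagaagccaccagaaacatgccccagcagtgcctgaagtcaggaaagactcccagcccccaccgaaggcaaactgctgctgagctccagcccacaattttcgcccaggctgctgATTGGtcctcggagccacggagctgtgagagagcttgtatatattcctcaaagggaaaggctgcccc
Vtn: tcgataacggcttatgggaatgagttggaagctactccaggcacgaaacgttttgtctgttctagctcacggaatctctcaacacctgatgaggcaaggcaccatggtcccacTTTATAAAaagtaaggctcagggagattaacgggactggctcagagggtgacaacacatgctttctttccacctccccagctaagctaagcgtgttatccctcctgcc
Rgs5 held 1 CCAAT match, on the minus strand and so read as ATTGG, and no TATAAA match in this window. Vtn held overlapping TATAAA matches on the 2 strands and no CCAAT match. Of 32851 RefSeq windows of 250 bases, 33.85% held CCAAT and 12.37% held TATAAA, so neither match is rare.

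Acta2 encodes smooth muscle alpha-actin, the contractile filament of arterioles (chromosome 19, 34241090 to 34255590, minus strand). Acta2 had 3.32, 6.40, 7.56 and 5.67 CPM in shPpp1r17 libraries 1 to 4, and 4.71, 3.37, 1.88 and 2.40 CPM in shfLuc libraries 1 to 4. Libraries 2, 3 and 4 of shPpp1r17 were above all shfLuc libraries, while library 1 lay below shfLuc 1 and 2. The log2 fold change of 0.90 (SE 0.31) was as large as that of Dcn, with a wider error, and it missed the threshold in edgeR's quasi-likelihood test (adjusted p = 0.106). DESeq2 called it (adjusted p = 0.0365, in a fit that called 12.6% of genes with an adjusted p). It also passed in edgeR without shfLuc 1 (adjusted p = 0.0474) and without shPpp1r17 1 (adjusted p = 0.0414), and had a log2 fold change of 0.54 without shPpp1r17 2 and 3.

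The CArG box is the letters that serum response factor binds before many smooth muscle genes, and Acta2 is a textbook case. No strict CArG box was found in the 250 bases before its RefSeq start, so boxes with 1 base other than A or T in the core were searched as well. The 2 that were found are shown with 10 bases on each side, the box in capitals, on the minus strand of GRCm38.p6 at chr19:34255438-34255467 and chr19:34255388-34255417.
Acta2 distal box: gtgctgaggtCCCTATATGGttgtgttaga
Acta2 proximal box: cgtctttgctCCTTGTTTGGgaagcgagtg
Both boxes lie before the RefSeq start, at -84 to -75 and at -34 to -25 from it. The outermost boundary of the gene in GENCODE M21 reaches farther, to 34255590, and takes in both boxes. Which start was used in these libraries was not tested. A strict box was present in 1.47% of the 32851 windows, a box of this looser kind in 8.59%, and 2 or more in 0.67%. These matches are not particular to the smooth muscle gene: Igf2, which has several RefSeq starts, held 2 such boxes in the window of 1 of them, 1 of the 2 a strict box, and Col1a2 held 1. The boxes of Igf2 and Col1a2 likewise lie before a RefSeq start and inside the outermost gene boundary of GENCODE M21. Of 8 genes of the smooth muscle list below with a RefSeq entry, Myl9 alone held a match.

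Igf2, an insulin-like growth factor that in the adult brain is made mainly by leptomeningeal and perivascular fibroblasts and choroid plexus, had 2.97, 2.34, 3.43 and 3.97 CPM in shPpp1r17 libraries 1 to 4, and 5.36, 3.75, 1.20 and 4.17 CPM in shfLuc libraries 1 to 4. The shfLuc libraries held both the highest and the lowest level, and all shPpp1r17 libraries lay between them. On the log2 scale the change was -0.18 (SE 0.36; adjusted p = 0.812 in edgeR). Its sign turned with sample quality weights and without shfLuc 1. The gene lies on chromosome 7 (142650766 to 142666816, minus strand), where Igf2os and 2 other annotated genes overlap it, with 1 read in all.

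The 10 genes did not move as one block between libraries. Relative to the shfLuc mean, the median log2 level of the 9 tested genes was 0.01 in shPpp1r17 1, 0.43 in shPpp1r17 2, 0.40 in shPpp1r17 3 and 0.31 in shPpp1r17 4. In the shfLuc libraries it lay between -0.00288 and 0.0540. By this median library 1 of shPpp1r17 stood with the shfLuc libraries, whose own mean was the reference, which keeps their medians small. Gene by gene, Dcn and Col1a1 in library 1 were above all shfLuc libraries, and Pdgfrb and Col1a2 were below them all. The other tested genes lay within the shfLuc range. Library 1 was the lowest of its group for 6 of the 9 genes. In shPpp1r17 3 all 9 genes were above the shfLuc mean, in shPpp1r17 4 there were 8, in shPpp1r17 2 there were 7 and in shPpp1r17 1 there were 5.

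**Figure D3:**
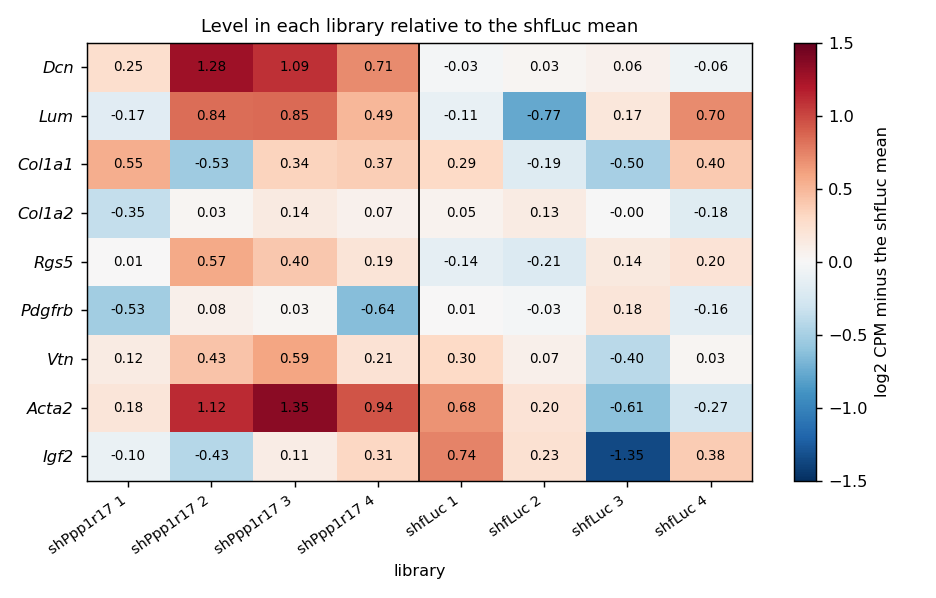
Log2 CPM of the 9 tested genes in each library minus the shfLuc mean (colour and printed value), with shPpp1r17 libraries left of the line and shfLuc libraries right of it. Dcn and Acta2 are the deepest red in shPpp1r17 2 and 3, Col1a2 is pale throughout, and shPpp1r17 1 is pale for most genes.

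After the group means were removed, deviations of the genes over the 8 libraries were compared in pairs, as a description, since the libraries share depth and dissection. Of 36 pairs, 27 had a Pearson correlation above 0 and 8 above 0.7, with a median of 0.27 and a lowest value of -0.67. The closest pairs crossed cell types: Acta2 of smooth muscle with Vtn of pericytes (r = 0.90), and Lum of fibroblasts with Rgs5 of pericytes (r = 0.90). Dcn deviated with Pdgfrb (r = 0.82) and Rgs5 (r = 0.74), and with Col1a2 at 0.74 over the 8 libraries and 0.32 without shPpp1r17 1. The lowest pair was Col1a1 with Pdgfrb. The 2 collagen I chains, which join in one molecule, deviated apart (r = -0.39).

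Among 9915 genes of moderate or high level, those whose deviations were most like those of Dcn were Tmem88b (r = 0.997), Tkt (r = 0.986) and Sestd1 (r = 0.981). The closest to Rgs5 were Rnf185 (r = 0.99), Eps15 (r = 0.984) and Itgb1 (r = 0.983), and the closest to Acta2 were Gdi2 (r = 0.981), Xkr8 (r = 0.974) and Cyp7b1 (r = 0.973). For Igf2 they were Nudt19 (r = 0.968), Cutc (r = 0.953) and Mfsd10 (r = 0.952). None of these 12 genes is a marker of the vessel wall in the lists used, apart from the adhesion receptor Itgb1. Each value is among the highest of all the genes searched, over 8 libraries.

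Other genes of the vessel wall and its matrix were taken from 10 lists with 138 symbols, 118 of them tested. Of these, 6 were higher and 2 were lower in shPpp1r17 in edgeR's quasi-likelihood test, which is 6.78% called beside 6.06% of all genes. Their median log2 fold change was 0.15. The count moved with the libraries used, as did the count over all genes. It was 7 without shfLuc 1, 0 without shfLuc 2, 0 without shfLuc 3 and 2 without shfLuc 4. It was 11 without shPpp1r17 1, 3 without shPpp1r17 2, 1 without shPpp1r17 3 and 11 without shPpp1r17 4. The counts over all genes tested in each fit began at 0 without shfLuc 2 or 3 and reached 1548 without shPpp1r17 4. The count over the lists was 0 without both shPpp1r17 2 and 3, where 37 of all genes were called. On log2(TPM + 1) 2 genes of the lists were called, and on log2(TPM + 0.1) 3.

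**Figure D4:**
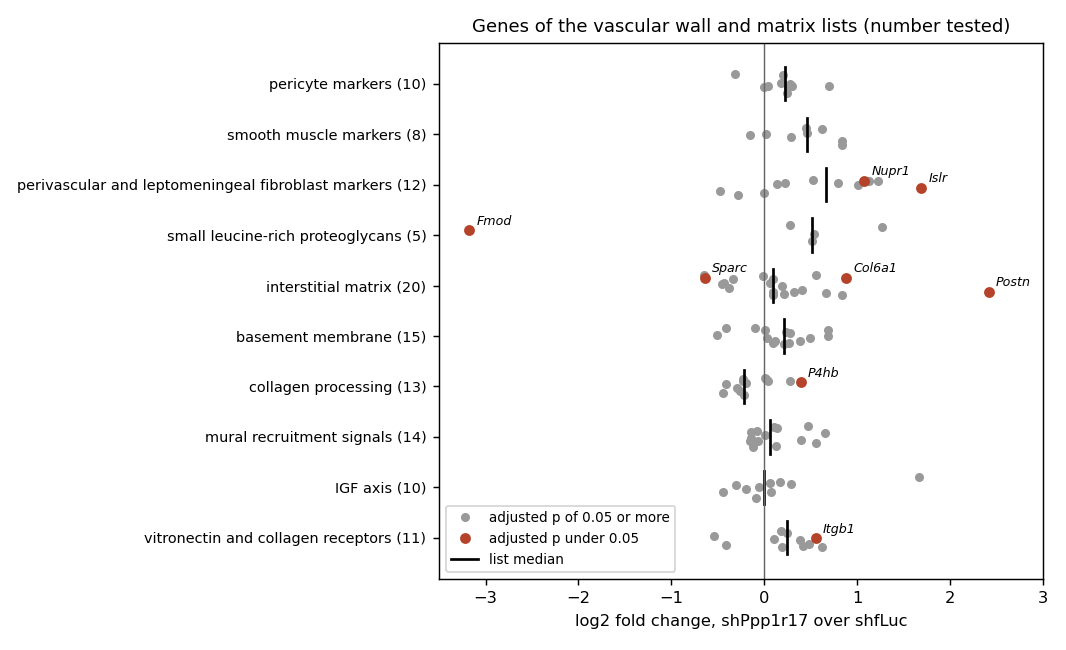
Log2 fold change of shPpp1r17 over shfLuc for the tested genes of 10 lists (1 point a gene, spread vertically for legibility), with list medians as black bars and the 8 genes with an adjusted p under 0.05 in red and named. Medians run from -0.22 for collagen processing to 0.66 for fibroblast markers.

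No pericyte or smooth muscle marker passed. Of 10 further pericyte markers, 8 were above 0, with a median log2 fold change of 0.22. EdgeR, DESeq2 and voom with and without weights called 0 of them, and 0 had an unadjusted p under 0.05 in edgeR. Anpep, a pericyte aminopeptidase, had a log2 fold change of 0.70 (adjusted p = 0.332), the receptor Notch3 one of -0.31 (adjusted p = 0.46) and Higd1b, a small mitochondrial protein, one of 0.28 (adjusted p = 0.545), or -0.13 without shPpp1r17 2 and 3. The ion channel genes Kcnj8 (0.25) and Abcc9 (0.29), which form the pericyte potassium channel, and the proteoglycan gene Cspg4 (-0.01) were not called either, these 3 being named after their values were seen. The 10 summed to 39.6 to 58.2 CPM in shPpp1r17 and 41.5 to 47.5 CPM in shfLuc.

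Of 8 tested smooth muscle markers, 7 were above 0, with a median log2 fold change of 0.46. None was called by edgeR, DESeq2 or voom, and 2 had an unadjusted p under 0.05 in edgeR. Tagln, an actin-binding protein of smooth muscle, had 1.88, 2.42, 2.99 and 2.70 CPM in shPpp1r17 libraries 1 to 4, and 2.38, 1.02, 1.20 and 1.02 CPM in shfLuc libraries 1 to 4. One shfLuc library lay within the range of shPpp1r17, and the same library was the highest shfLuc library for Acta2. The log2 fold change of Tagln was 0.83 (SE 0.33; adjusted p = 0.159). Myl9, the regulatory myosin light chain, had one of 0.45 (adjusted p = 0.212) and Tpm2, a tropomyosin, one of 0.62 (adjusted p = 0.394). Without shPpp1r17 2 and 3, Myl9 stood at -0.0064 and Tpm2 at -0.14 on the same scale.

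Fibroblast markers had the highest median of the 10 lists, 0.66, with 9 of 12 above 0 and 2 called higher. Of these 12, 6 had an unadjusted p under 0.05 in edgeR. DESeq2 called 4, voom 1 and voom with weights 3, and edgeR called 0 without shPpp1r17 2 and 3. Nupr1, a stress-inducible nuclear protein used as a marker of brain fibroblasts, had 8.87, 12.3, 15.8 and 10.1 CPM in shPpp1r17 libraries 1 to 4, and 6.70, 4.77, 5.09 and 5.78 CPM in shfLuc libraries 1 to 4. All shPpp1r17 libraries were higher, and Nupr1 rose by 1.08 on the log2 scale (SE 0.20; adjusted p = 0.0124 in edgeR). Its adjusted p was 0.0558 without shfLuc 2, 0.0572 without shfLuc 3 and 0.134 without both shPpp1r17 2 and 3 (log2 fold change 0.76), and it passed without each of the other 6 libraries. Islr, a secreted leucine-rich protein of mesenchymal cells, had 1.95, 6.37, 6.76 and 3.53 CPM in shPpp1r17 libraries 1 to 4, and 1.64, 2.56, 0.56 and 1.02 CPM in shfLuc libraries 1 to 4. It was called (log2 fold change 1.69, SE 0.46, adjusted p = 0.0476) although shPpp1r17 1 lay below shfLuc 2. Of the fits with 1 library left out, it passed without shPpp1r17 1 and without shPpp1r17 4, and its adjusted p was 0.0626 to 0.159 in the other 6. Without both shPpp1r17 2 and 3 the change was 0.93 (adjusted p = 0.489). The call was also lost with limma voom, on TPM, with effective length offsets and with the replicate number as a block. Its reads are uncertain, because Islr2 and 2 other annotated genes overlap it, 1 of them on the opposite strand. Mgp, matrix Gla protein, an inhibitor of calcification in vessel walls, missed the threshold at 1.13 (SE 0.33; adjusted p = 0.059). It passed in DESeq2 (adjusted p = 0.0097), in edgeR without the filter on low counts (0.0274), without shPpp1r17 1 (0.0168) and without shPpp1r17 4 (0.0451), and stood at 0.49 without shPpp1r17 2 and 3 (adjusted p = 0.581).

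The markers of this list summed to 68.3 to 97.6 CPM in shPpp1r17 and to 55.0 to 66.7 CPM in shfLuc, without overlap. Dcn, Lum and the collagens are not among them. The marker with the highest level was Pdgfra, looked up after the fit, with a mean of 36.42 CPM in shPpp1r17 and 33.15 CPM in shfLuc. Pdgfra thus held a large part of each sum, and it was not called (log2 fold change 0.14, adjusted p = 0.429 in edgeR). Bulk libraries do not show which cells its reads came from, so these sums are not a measure of fibroblasts alone. The same limit holds for the other marker sums, that of the pericyte list with Cspg4 included. Of the 16, the solute carrier genes Slc47a1 and Slc22a6 and the collagen gene Col15a1, named after their values were seen, had 1, 35 and 55 reads over the 8 libraries and were not tested.

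Relatives of decorin had fitted changes on both sides of 0. Fmod, fibromodulin, which like decorin and lumican binds collagen fibrils, fell in shPpp1r17, with 1, 6, 2 and 1 reads in shPpp1r17 libraries 1 to 4 and 14, 34, 12 and 22 reads in shfLuc libraries 1 to 4. The groups were apart, on few reads, with a log2 fold change of -3.17 (SE 0.67; adjusted p = 0.0185 in edgeR). The call was lost without shfLuc 2 (adjusted p = 0.081), shfLuc 3 (0.0583), shfLuc 4 (0.0594) or shPpp1r17 3 (0.0742). With all libraries it was also lost on log2(TPM + 1). Aspn, asporin, had 1.64, 4.72, 2.45 and 3.88 CPM in shPpp1r17 libraries 1 to 4, and 1.86, 0.85, 1.58 and 0.98 CPM in shfLuc libraries 1 to 4, which overlap in shPpp1r17 1. The log2 fold change of Aspn was 1.27 (SE 0.38; adjusted p = 0.0647) and that of Prelp was 0.54 (adjusted p = 0.237). Of the 5 tested proteoglycans of this family beside Dcn and Lum, 4 were above 0 and 1 was called. Keratocan (Kera), the gene of this family named for the cornea, was at 0 in all 8 libraries.

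In the interstitial matrix list, 2 of 20 genes were higher and 1 was lower, and the median log2 fold change was 0.10. Sparc, a collagen-binding glycoprotein that in brain is made largely by microglia, astrocytes and endothelium, was by far the most abundant. It had 1767, 1204, 1128 and 1737 CPM in shPpp1r17 libraries 1 to 4, and 2396, 2358, 2034 and 2305 CPM in shfLuc libraries 1 to 4. All shPpp1r17 libraries were lower, with shPpp1r17 2 and 3 the lowest, and Sparc fell by 0.64 on the log2 scale (SE 0.13; adjusted p = 0.0174 in edgeR). Without shPpp1r17 2 and 3 its log2 fold change was -0.38 (adjusted p = 0.0881). With 1 library left out it passed without shfLuc 1, shPpp1r17 1 or shPpp1r17 4, and its adjusted p was 0.0528 to 0.0667 in the other 5 fits. Col6a1, a chain of the microfibrillar collagen VI, rose by 0.88 (SE 0.23; adjusted p = 0.0383), with 4.18, 4.45, 4.97 and 4.82 CPM in shPpp1r17 and 2.90, 2.47, 2.95 and 1.69 CPM in shfLuc. Here shPpp1r17 1 and 4 stood close to 2 and 3, and the log2 fold change without 2 and 3 was 0.85 (adjusted p = 0.252). It passed without shfLuc 1 or shPpp1r17 1, with an adjusted p of 0.0522 to 0.118 in the other 6 fits with a library left out. Col6a1 was not called on log2(TPM + 1), on log2(TPM + 0.1) or with the replicate number as a block. Postn, periostin, a matricellular protein of fibroblasts, had 32, 28, 36 and 32 reads in shPpp1r17 libraries 1 to 4 and 6, 9, 5 and 0 reads in shfLuc libraries 1 to 4. Its log2 fold change was 2.41 (SE 0.62; adjusted p = 0.0373), and it passed with shPpp1r17 4 left out, while its adjusted p was 0.0594 to 0.117 with any other library left out. Its change was 1.24 with effective length offsets (adjusted p = 0.356) and 0.25 on log2(TPM + 1) (adjusted p = 0.282), and DESeq2 gave it no adjusted p. The call on Postn was also lost on log2(TPM + 0.1) and with the replicate number as a block.

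The basement membrane between pericyte and endothelium had 12 of 15 genes above 0, with a median of 0.21 and no call in edgeR, where 2 had an unadjusted p under 0.05. DESeq2 called 1, voom 0 and voom with weights 1. Col4a1, the main collagen chain of that membrane, had 7.35, 14.0, 12.2 and 7.94 CPM in shPpp1r17 libraries 1 to 4, and 6.74, 5.63, 7.39 and 6.02 CPM in shfLuc libraries 1 to 4. Libraries 2 and 3 of shPpp1r17 stood well above the rest, as for Dcn, and the log2 fold change was 0.68 (SE 0.21; adjusted p = 0.0743) with all libraries and 0.24 without those 2. Col18a1 stood at 0.49 (adjusted p = 0.214) and the laminin gene Lama2 at -0.42 (adjusted p = 0.35).

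Enzymes that process collagen were mostly below 0, with 8 of 13 on that side and a median of -0.22. The 1 call was P4hb, protein disulfide isomerase and a subunit of prolyl 4-hydroxylase, which all cells use. P4hb had 112, 129, 152 and 116 CPM in shPpp1r17 libraries 1 to 4, and 95.0, 102.5, 97.8 and 93.8 CPM in shfLuc libraries 1 to 4. The groups were apart, and P4hb rose by 0.39 on the log2 scale (SE 0.09; adjusted p = 0.0318). It passed without shPpp1r17 1 or 4, with an adjusted p of 0.0571 to 0.0951 in the other 6 fits with a library left out, and its change was 0.22 without shPpp1r17 2 and 3. P4hb was not called on log2(TPM + 1) or log2(TPM + 0.1). The catalytic partner P4ha1 stood at -0.23 (adjusted p = 0.287), and Adamts2, which trims procollagen, at -0.41 (adjusted p = 0.174).

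Signals that recruit mural cells gave no call among 14 tested genes in edgeR, DESeq2 or voom, and 2 had an unadjusted p under 0.05 in edgeR. The ligand Pdgfb, made by endothelium and read by Pdgfrb, had a log2 fold change of -0.14, a value looked up after the fit. Among receptors, Tgfbr2 of transforming growth factor beta stood at 0.56 (SE 0.20; adjusted p = 0.12) and the endothelial Acvrl1 at 0.47 (adjusted p = 0.378), and the ligand Tgfb3 stood at 0.65 (adjusted p = 0.168). Around Igf2, none of 10 tested genes was called by edgeR, DESeq2 or voom, and 2 had an unadjusted p under 0.05 in edgeR. The receptor Igf1r stood at -0.19 (adjusted p = 0.164), and the binding proteins Igfbp2 and Igfbp3 at 1.66 (adjusted p = 0.186, on 162 reads in all) and -0.45 (adjusted p = 0.267).

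Of 11 receptors and partners for vitronectin and collagen, 9 were above 0 and 1 was called. Itgb1, the beta 1 integrin chain shared by most collagen receptors, had 70.1, 91.6, 84.9 and 79.1 CPM in shPpp1r17 libraries 1 to 4, and 50.6, 49.5, 58.9 and 63.2 CPM in shfLuc libraries 1 to 4. The groups were apart, and Itgb1 rose by 0.55 (SE 0.10; adjusted p = 0.0133 in edgeR). The call was lost without shfLuc 2 (adjusted p = 0.06), shfLuc 3 (0.0569) or shPpp1r17 3 (0.0513), and the change was 0.42 without both shPpp1r17 2 and 3 (adjusted p = 0.153). On log2(TPM + 1) and log2(TPM + 0.1) Itgb1 was not called either. Ddr2, a collagen receptor kinase, stood at 0.49 (adjusted p = 0.311) and Itgb5, a chain of a vitronectin receptor, at 0.25 (adjusted p = 0.408).

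Markers of other cells that hypothalamic tissue holds were measured beside these genes. Red blood cell genes were higher in shPpp1r17 for 5 of 5, with sums of 638 to 1231 CPM in shPpp1r17 and 328 to 567 CPM in shfLuc. Microglial markers were above 0 for 8 of 8, with sums of 383 to 558 CPM in shPpp1r17 and 277 to 371 CPM in shfLuc. Neither pair of ranges overlapped. Endothelial markers, which come from the same vessels as mural cells, were above 0 for 10 of 11 with 1 called (Ly6c1). Their sums overlapped at 330 to 447 CPM in shPpp1r17 and 320 to 387 CPM in shfLuc. Itm2a, looked up after the fit, held a large part of these sums, with 175 to 215 CPM in shPpp1r17 and 176 to 233 CPM in shfLuc. It was not called (log2 fold change -0.02, adjusted p = 0.918 in edgeR). Oligodendrocyte markers summed to 1201, 1905, 2019 and 1107 CPM in shPpp1r17 libraries 1 to 4, and to 1085 to 1135 CPM in shfLuc, with 1 of 5 called. These sums were highest in shPpp1r17 2 and 3, as was Dcn. Ependymal and tanycyte markers held 16.7 to 58.8 CPM in shPpp1r17 and 9.36 to 23.3 CPM in shfLuc, with 1 of 4 called (Crym).

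Perivascular macrophage markers, whose cells share the space of the perivascular fibroblasts, held 5.70 to 10.9 CPM in shPpp1r17 and 4.36 to 7.91 CPM in shfLuc. EdgeR, DESeq2 and voom called 0 of those 6, with 1 at an unadjusted p under 0.05 in edgeR. Choroid plexus markers, another source of Igf2, held 20.1 to 40.2 CPM in shPpp1r17 and 30.8 to 38.0 CPM in shfLuc, and 1 of 3 was lower, Clic6 (log2 fold change -0.80). The choroid plexus transcript Ttr stood at 1.48 (adjusted p = 0.122), with 17.9, 4.88, 3.65 and 1.82 CPM in shPpp1r17 libraries 1 to 4 and 2.29 to 2.78 CPM in shfLuc. Folr1, too low to be tested, had 0.147 to 0.43 CPM in shPpp1r17 and 0 to 0.0864 CPM in shfLuc. Astrocyte markers held 2070 to 2404 CPM in shPpp1r17 and 2109 to 2356 CPM in shfLuc, with 0 of 5 called in edgeR (1 at an unadjusted p under 0.05) and 1 in DESeq2. Of 6 neuronal markers 1 was higher and 1 was lower. No marker of these 9 lists was at 0 in all 8 libraries. The part that any of these cell types has in the difference in Dcn was not tested.

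**Figure D5:**
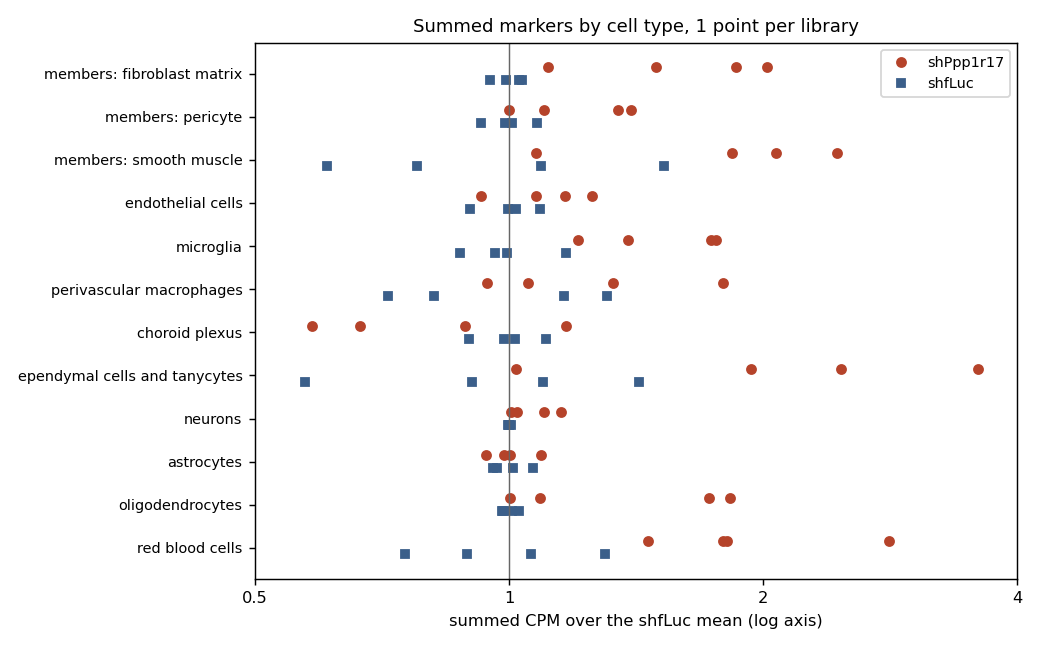
Summed CPM of the genes described here, by role, and of 9 lists of markers of other cells, in each library relative to the shfLuc mean (log axis; red circles shPpp1r17, blue squares shfLuc). Fibroblast matrix genes, microglia and red blood cells have groups apart. Neuronal sums are also apart, by less than the rounding (nearest sums 3864 CPM in both groups). Pericyte, smooth muscle and endothelial sums overlap.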

How the data were processed

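For each of the 8 libraries the authors deposited 1 table of 55487 mouse Ensembl genes with, per the file headers, expected counts (estimated reads, which need not be whole), TPM and gene lengths. Per the labels' protocols, RNA was extracted with a kit for small tissue samples and made into libraries with SMARTer chemistry. The tools bcl2fastq, DRAGEN, edgeR and limma stand in the submitters' processing notes, with no role or version, and their genome build is not given in the sources used here. Deposited TPM values were used for levels per length and in 2 alternatives with pseudocounts of 1 and 0.1. Effective lengths in bases, per the file headers, entered another as offsets.

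Symbols matched 55141 identifiers. Expected counts were rounded and tested with edgeR 4.0.16 in R 4.3.3 (quasi-likelihood test, TMM factors, filter with minimum count 10 and minimum total count 15, group as the single term), adjusted by Benjamini-Hochberg over 17339 genes at a threshold of 0.05. All p-values without another name are from this test. CPM are estimated reads per 1000000 of the library size over the tested genes, multiplied by its TMM factor (0.9884 to 1.01). Each standard error is the fold change divided by the root of its F value. Alternatives were DESeq2 1.42.0, limma 3.58.1 voom with and without weights, other normalizations and filters, a replicate block and libraries left out. Without molecular identifiers, PCR reads may repeat a molecule, so a limit from a count of 0 covers counting error only.

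The genes, lists and tests were chosen with earlier results of these data known. From each list the 3 genes with the smallest p and all called genes are named, and others are marked in the text. Coordinates are from GENCODE M21 on GRCm38 and promoter sequences from RefSeq on GRCm38.p6, which need not be the authors' build. Replicates were checked as separate libraries. A marker gene of another cell type is not reported here.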

Additional observations from a re-analysis of the deposited data

Results flagged for a closer look

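Of 58 groups of 4 libraries checked for a library far from the others, over single genes and summed lists, 1 was flagged, where chance alone gives about 1 in 20. The summed level of small leucine-rich proteoglycans beside Dcn and Lum was 32.5 CPM in shfLuc 2, while the other shfLuc libraries lay between 17.1 and 18.6 CPM. In that library Prelp had 24.2 CPM, against 9.61 to 11.3 CPM in the other shfLuc libraries, and Fmod had 34 of the group's 82 reads.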

How the results depend on the processing

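The sign of Dcn, Lum, Col1a1, Pdgfrb, Rgs5, Acta2 and Vtn was the same in all 20 alternatives of each. Dcn passed in 15 of its 20. Of all genes, DESeq2 called 1925 (2 of the vessel wall genes) and voom with sample quality weights 1763. With single libraries left out, edgeR called 0 to 1548 genes, 0 to 2 of the vessel wall genes and 0 to 11 genes of the 10 lists. The genes called were 0 without shfLuc 2 and without shfLuc 3, with 3309 and 3146 at an unadjusted p under 0.05. Without shPpp1r17 2 and 3, edgeR called 37 genes, 0 of the vessel wall genes (2315 genes at an unadjusted p under 0.05) and 0 of the lists, and the median of the 9 was 0.11. Signs turned for Col1a2 without shfLuc 2 and without shPpp1r17 1 (-0.083 to 0.077 with 1 library left out), for Igf2 with sample quality weights (0.043) and without shfLuc 1 (-0.47 to 0.065 with 1 library left out), and without shPpp1r17 2 and 3 for Higd1b (-0.13), Myl9 (-0.0064) and Tpm2 (-0.14). The cause was not tested. Same-numbered libraries correlated weakly in their deviations (r from -0.01 to 0.12), and 4 of 8 libraries correlated best with their own number. With so few libraries this cannot decide whether libraries of the same number were paired. With the replicate number as a block, 726 genes passed, 1 of them a vessel wall gene and 5 of them list genes, and the median was 0.29. On log2(TPM + 1) and log2(TPM + 0.1), 2 and 3 list genes passed. Low counts limit Col3a1, Fmod and Postn.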
